A study of Mus musculus with 17 samples.

Results

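Arginase 1 (Arg1) and inducible nitric oxide synthase (Nos2) are the pair of enzymes that compete for the amino acid L-arginine in activated mouse macrophages. They were read from the rows of the count table that carry these symbols, so they are 2 of 10207 rows with a gene symbol and 2 of 7518 genes that passed the filter on low counts. In the GRCm38 (mm10) build, Arg1 (ENSMUSG00000019987.9) lies on chromosome 10 at 24915221 to 24927484 on the minus strand. Nos2 (ENSMUSG00000020826.8) lies on chromosome 11 at 78920787 to 78960254 on the plus strand. Both are annotated as protein coding, and 0 other annotated genes overlap either of them.

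Arg1 is a cytosolic enzyme that splits arginine into urea and ornithine, the precursor of polyamines and proline. Nos2 turns arginine into citrulline and nitric oxide, with tetrahydrobiopterin as a cofactor. In mouse macrophages Arg1 is known as a target of interleukin 4 and interleukin 13 through Stat6, and Nos2 as a target of interferon gamma and of Toll-like receptor ligands, which act through NF-kB. Arg1 in tumor myeloid cells is known for depleting the arginine that T cells need.

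Sorted myeloid cells of female BALB/c mice were profiled by 3′-end RNA sequencing, and 11 of the 17 libraries could be read by gene. Tumor-associated macrophages (TAM, 3 libraries) were CD11b+ Gr1- F4/80+ cells of tumors grown from 100000 4T1-luc mouse mammary carcinoma cells in the mammary fat pad and taken at a size of 1 cm. BMDM_T (4 libraries) were CD11b+ Gr1+ F4/80low cells flushed from the leg bones of tumor-bearing mice, which the titles call bone marrow-derived monocytes. BMDM_H (4 libraries) were cells of the same gate from mice without a tumor. Label age was 8 weeks for TAM and BMDM_T and 12 weeks for BMDM_H, so tumor and label age cannot be told apart in any comparison with BMDM_H. The design text of the series calls the healthy mice age-matched, which differs from these labels. Collagenase was used on tumors but not on marrow, so tissue, gate and preparation cannot be told apart between TAM and marrow. Whether each replicate is a mouse of its own is not stated, so the p-values measure the spread between these libraries, which may be technical. The other 6 libraries, 4 of BMDM_H and 2 of mammary gland macrophages (MGM), were not analysed here by gene.

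Total counts ran from 1748338 to 3747929 in TAM, from 931278 to 1218977 in BMDM_T and from 387940 to 1286844 in BMDM_H. Levels are given as CPM, in which each count is divided by the TMM-scaled total of its library, and in 3′-end libraries a count does not grow with gene length. The 10 macrophage markers with a symbol summed to 59528 to 73361 CPM in TAM, against 2115 to 2621 CPM in BMDM_T and 2715 to 3714 CPM in BMDM_H. The 12 neutrophil markers, such as S100a8 and Ngp, summed to 313 to 552 CPM in TAM, against 166643 to 201584 CPM in BMDM_T and 137595 to 211505 CPM in BMDM_H. The 6 monocyte markers summed to 1220 to 1719 CPM in BMDM_T and 1904 to 3371 CPM in BMDM_H, so the marrow libraries labelled as monocytes carried far more neutrophil than monocyte transcripts. In such bulk libraries, fewer cells that express a gene and less RNA of it per cell cannot be told apart. The part of cell composition in the results below was not tested.

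Arg1 was abundant in TAM and low in both marrow groups. It had 2536, 1331 and 2003 CPM in TAM replicates 1 to 3, from 4564, 2510 and 7749 counts. In BMDM_T replicates 1 to 4 it had 1.08, 12.6, 16.2 and 6.31 CPM, from 1, 15, 14 and 7 counts. In BMDM_H replicates 1 to 4 it had 1.59, 13.7, 26.0 and 28.6 CPM, from 2, 17, 14 and 11 counts. Every TAM library lay above every marrow library, while the marrow groups overlapped in part. BMDM_H replicates 3 and 4 lay above all BMDM_T libraries, and replicate 1 was the lowest library of each marrow group. The mean was 1957 ± 604 CPM in TAM (SD, n = 3), 9.04 ± 6.69 CPM in BMDM_T (SD, n = 4) and 17.5 ± 12.4 CPM in BMDM_H (SD, n = 4). The SD was 30.8% of the mean in TAM, against 74.0% in BMDM_T and 71.2% in BMDM_H. With so few counts in marrow the counting error was wide, and the exact Poisson 95% interval ran from 0.0273 to 6.00 CPM in BMDM_T replicate 1 and from 14.3 to 51.2 CPM in BMDM_H replicate 4. These intervals cover counting error only.

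Nos2 was highest in TAM, lower in BMDM_T and close to the detection limit in BMDM_H. TAM replicates 1 to 3 had 45.6, 45.6 and 58.9 CPM, from 82, 86 and 228 counts. BMDM_T replicates 1 to 4 had 30.1, 5.04, 15.01 and 9.02 CPM, from 28, 6, 13 and 10 counts. BMDM_H had 1 count in all, in replicate 3 (1.86 CPM), and replicates 1, 2 and 4 had 0 counts. The 3 groups did not overlap, in the order TAM, BMDM_T, BMDM_H. The mean was 50.04 ± 7.71 CPM in TAM (SD, n = 3), 14.8 ± 11.02 CPM in BMDM_T (SD, n = 4) and 0.465 ± 0.930 CPM in BMDM_H (SD, n = 4). A count of 0 allowed a level of up to 2.39, 2.41 and 7.81 CPM in BMDM_H replicates 1, 2 and 4 (3 counts per library). The lowest BMDM_T library, replicate 2 at 5.04 CPM, lay under the limit of BMDM_H replicate 4, the library with the fewest counts. The upper ends of the two-sided exact Poisson 95% intervals were wider, at 2.94, 2.97 and 9.60 CPM, and BMDM_T replicate 4 (9.02 CPM) lay under the last of these too.

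**Figure D1:**
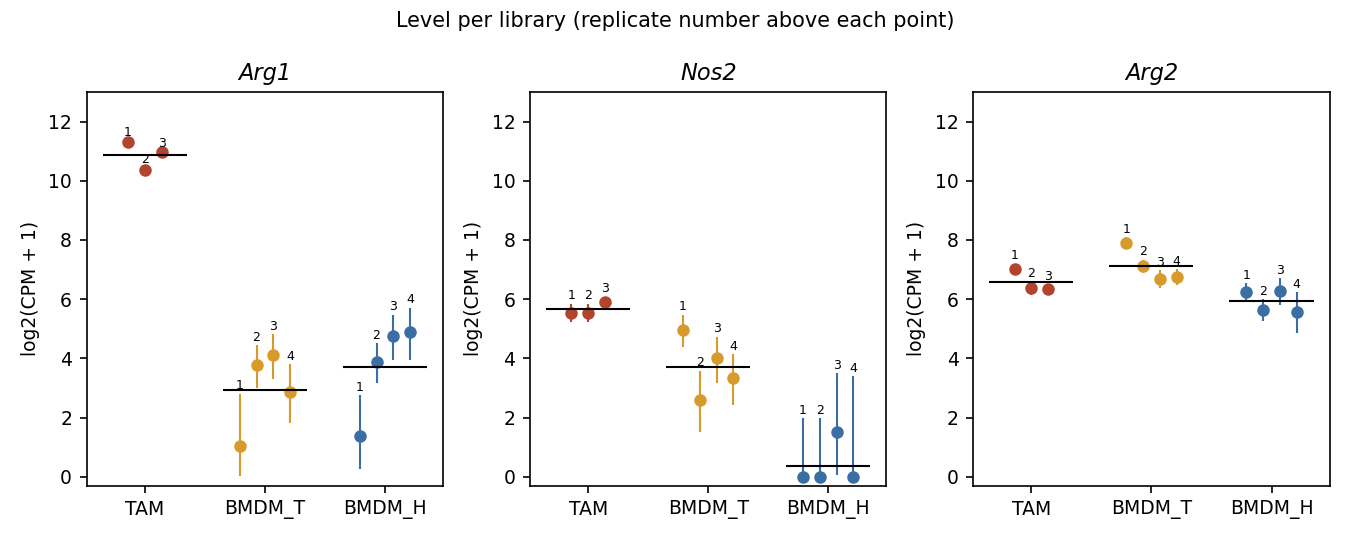
Level of Arg1, Nos2 and Arg2 in each library as log2(CPM + 1), with the replicate number above each point, exact Poisson 95% intervals of the count as vertical lines and group means as horizontal lines. Arg1 lay between 1331 and 2536 CPM in TAM and under 30 CPM in every marrow library, Nos2 fell in 3 separate ranges, and Arg2 lay between 46.8 and 238 CPM in all 11 libraries.

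Between TAM and BMDM_T, which come from tumor-bearing mice of the same label age, Arg1 was 217-fold higher in TAM (log2 fold change 7.76 ± 0.47 SE, 95% interval 6.77 to 8.75, edgeR quasi-likelihood test, adjusted p = 2.40e-11). By log2 fold change this rise ranked 3 among 7471 genes with counts in both groups. Nos2 was 3.53-fold higher in TAM (1.82 ± 0.36 SE, 95% interval 1.06 to 2.58, edgeR adjusted p = 2.34e-04), a rise that ranked 723. Nos2 did not pass the low-count filter in a fit of the marrow groups alone. Its call and rank in this comparison are therefore given as a description. Both members passed the test in a comparison in which 30.1% of all tested genes were called higher in TAM, 28.7% were called lower, and 30.4% had all TAM libraries above all BMDM_T libraries. A call was therefore common here, and the size of the Arg1 difference was not. The Nos2 difference was 2.41 without BMDM_T replicate 1, the library with 30.1 CPM, and its adjusted p was then 5.13e-06 (edgeR).

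Between TAM and BMDM_H, Arg1 was 140-fold higher in TAM (log2 fold change 7.13 ± 0.47 SE, 95% interval 6.16 to 8.11, edgeR adjusted p = 8.89e-11) and ranked 9 among 7463 genes by rise. Nos2 passed as well, with a fitted log2 fold change of 7.42 ± 0.77 SE (edgeR adjusted p = 7.36e-08). The marrow groups fitted alone did not keep Nos2 at the low-count filter. A gene kept through its high group had to differ, so the Nos2 call is given as a description. The size of the Nos2 difference rests on 396 counts in TAM against 1 count in BMDM_H. The ratio of the summed counts per effective library size was 179, with a 95% counting interval of 32.0 to 7103. In this comparison 28% of tested genes were called higher, 28.3% were called lower, and 27.5% had all TAM libraries above all BMDM_H libraries. Both comparisons use the same TAM libraries and are not independent of each other.

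Between BMDM_T and BMDM_H, the same gate in mice with and without a tumor, Nos2 passed the test and Arg1 did not. Nos2 was higher in BMDM_T (log2 fold change 5.60 ± 0.97 SE, 95% interval 3.57 to 7.63, edgeR adjusted p = 0.00134), with 57 counts in BMDM_T against 1 in BMDM_H. The ratio of summed counts per effective library size was 47.6, with a 95% counting interval of 8.21 to 1915. Only 2.82% of tested genes were called higher and 2% lower in BMDM_T, 5.99% had all BMDM_T libraries above all BMDM_H libraries, and the fitted Nos2 rise ranked 3 among 7508 genes with counts in both groups. Nos2 did not pass the low-count filter when BMDM_T and BMDM_H were fitted alone, so its test and rank here need the TAM libraries. Without BMDM_H replicate 3, which held the 1 count, BMDM_H had 0 Nos2 counts. The fitted size was then set by a small count that the fit adds, so it is not given, and Nos2 passed (edgeR adjusted p = 0.00322). Arg1 did not pass (log2 fold change -0.63 ± 0.62 SE, edgeR adjusted p = 0.667), with 37 counts in BMDM_T against 44 in BMDM_H. Its 95% interval of -1.91 to 0.66 leaves room for a change of either sign, and without BMDM_H replicates 3 and 4, the libraries of lowest total, the estimate was 0.25. Markers of several cell types moved beside Nos2. The summed neutrophil markers overlapped between BMDM_T and BMDM_H, but 4 of the 12 were called higher and 0 lower in BMDM_T. Among these 4, the granule enzyme gene Mpo averaged 1702 ± 154 CPM in BMDM_T and 492 ± 102 CPM in BMDM_H, and the chemokine receptor gene Cxcr2 averaged 702 ± 55.6 CPM in BMDM_T and 253 ± 27.7 CPM in BMDM_H (SD, n = 4 each). The macrophage markers given above summed lower in every BMDM_T library than in any BMDM_H library, with 4 of the 10 called lower and 0 higher, and so did the monocyte markers, with 4 of the 6 called lower and 0 higher. The red cell precursor markers summed to 6.31 to 20.2 CPM in BMDM_T against 51.7 to 260 CPM in BMDM_H. All 5 red cell precursor markers were called lower. The part of these shifts in the Nos2 difference was not tested.

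Setting the members against each other within a library removes the scaling between libraries. The log2 ratio of Arg1 to Nos2 counts, with 0.5 added to each, was 5.79, 4.86 and 5.08 in TAM replicates 1 to 3. In BMDM_T replicates 1 to 4 it was -4.25, 1.25, 0.10 and -0.49, so TAM and BMDM_T did not overlap. In BMDM_H replicates 1 to 4 it was 2.32, 5.13, 3.27 and 4.52, values in which the Nos2 count was 0 or 1 and the added 0.5 sets much of the result. The order of the group means was thus TAM, BMDM_H and BMDM_T, with TAM and BMDM_H overlapping and BMDM_T below both. With Arg1 as a share of Arg1 plus Nos2 counts, TAM minus BMDM_H was -0.00979, so the order of TAM and BMDM_H depends on the measure. The mean was 6.09 higher in TAM than in BMDM_T (5.24 ± 0.49 against -0.84 ± 2.38, SD, n = 3 and 4, two-sided exact permutation p = 0.0571, adjusted p = 0.0857 over 3 comparisons). TAM exceeded BMDM_H by 1.43 (5.24 ± 0.49 against 3.81 ± 1.26, SD, n = 3 and 4, exact permutation p = 0.171, adjusted p = 0.171). BMDM_T lay below BMDM_H by 4.66 on the log2 scale (difference -4.66, exact permutation p = 0.0286, adjusted p = 0.0857). The smallest adjusted p that these group sizes allow is 0.0571, so no ratio could pass 0.05. A ratio of counts compares libraries and does not give the relative abundance of the messages.

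Arg2, the mitochondrial arginase that catalyses the same step as Arg1, had another pattern. It had 128, 82.2 and 80.4 CPM in TAM, 238, 138, 102 and 107 CPM in BMDM_T and 75.6, 49.1, 76.2 and 46.8 CPM in BMDM_H. BMDM_T lay above BMDM_H in every library, and TAM overlapped BMDM_T and lay just above BMDM_H. Arg2 was 2.33-fold higher in BMDM_T than in BMDM_H (log2 fold change 1.22 ± 0.26 SE, edgeR adjusted p = 0.0083), a call lost without BMDM_H replicates 3 and 4 (adjusted p = 0.0628). TAM against BMDM_T gave -0.60 ± 0.26 SE (edgeR adjusted p = 0.0513) and TAM against BMDM_H gave 0.62 ± 0.28 SE (edgeR adjusted p = 0.0621). Leaving out TAM replicate 1 brought TAM against BMDM_T to -0.85 (edgeR adjusted p = 0.0136), and with the replicate number as a block the adjusted p was 0.00373, so this comparison lay at the threshold. TAM against BMDM_H passed with the block as well (0.56, edgeR adjusted p = 0.0223), and in 5 of 19 alternatives in all. Same-numbered TAM and marrow libraries did not deviate together (r = -0.0554 to 0.0783, limit 0.1), so the block has little basis in these TAM comparisons. Of all counts for the arginases, Arg1 made up 95.2%, 94.2% and 96.1% in TAM, against 0.450%, 8.38%, 13.7% and 5.56% in BMDM_T and 2.06%, 21.8%, 25.5% and 37.9% in BMDM_H. Exact binomial 95% intervals ran from 93.2% to 96.6% over the TAM libraries and from 0.0114% to 57.7% over the marrow libraries. Arg1 thus held most arginase counts in each TAM library and the smaller share in each marrow library.

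**Figure D2:**
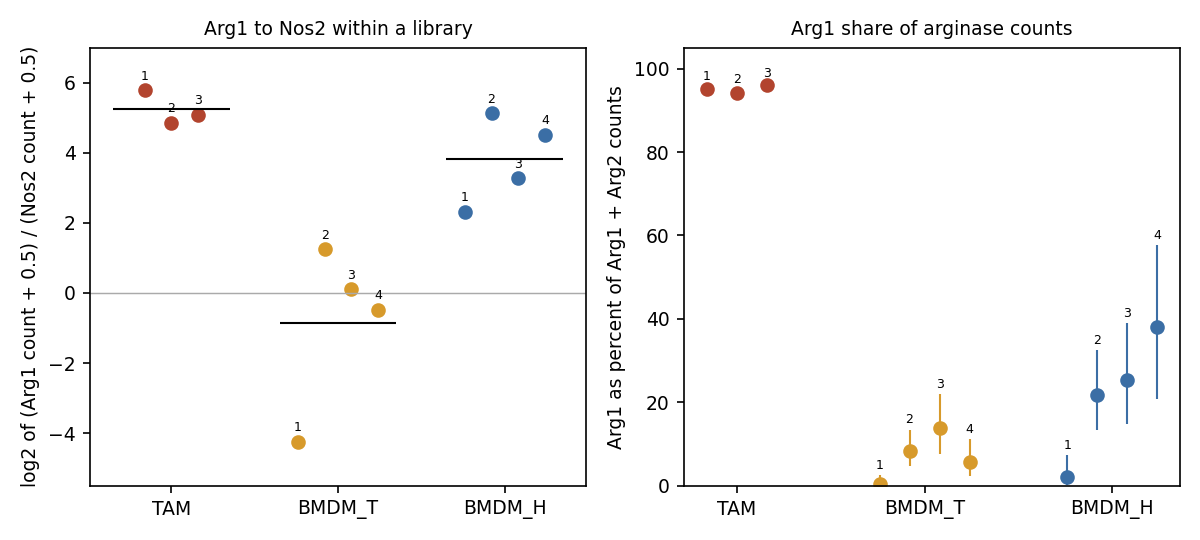
Left, log2 ratio of Arg1 to Nos2 counts in each library with 0.5 added to each count and group means as lines; right, Arg1 as a percentage of Arg1 plus Arg2 counts with exact binomial 95% intervals. TAM libraries had ratios of 4.86 to 5.79 and Arg1 shares of 94.2% to 96.1%, and BMDM_T had the lowest ratios, -4.25 to 1.25.

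The genes around Arg1 and Nos2 were read from lists of arginine metabolism that name 62 genes, of which 47 had a symbol in the table and 39 passed the filter. A gene that passed the filter through 1 high group had to differ, so these counts describe the tested members and are not evidence for the lists. The same holds for the lists of regulators, activation genes and nitric oxide handling below. Of the 39, 23 were higher and 3 lower in TAM than in BMDM_T (66.7% called, against 58.9% of all tested genes), with a median log2 fold change of 0.80 against 0.03 over all tested genes. In TAM against BMDM_H, 21 were higher and 3 lower (61.5% called, against 56.3%), with a median of 0.86 against 0.02. In BMDM_T against BMDM_H, 5 were higher and 1 lower (15.4% called, against 4.82%), with a median of 0.00 against -0.02. The shares called in the TAM comparisons were thus near those of all genes, with most calls in the direction of TAM.

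Arginine enters cells through cationic amino acid transporters, and all 4 tested transport genes were higher in TAM than in BMDM_T, where 30.1% of all tested genes were. Slc7a2, the transporter known for supplying macrophage arginase and nitric oxide synthase, had 20.0, 9.02 and 24.6 CPM in TAM, against 0, 0.840, 0 and 1.80 CPM in BMDM_T. Its log2 fold change was 4.65 ± 0.65 SE (edgeR adjusted p = 3.75e-06), and 5.76 without BMDM_T replicate 4, so its size rests on 3 counts in BMDM_T. Slc3a2, the heavy chain shared by heteromeric amino acid exchangers, averaged 627 ± 122 CPM in TAM and 81.3 ± 10.002 CPM in BMDM_T (SD, n = 3 and 4), a log2 fold change of 2.94 ± 0.18 SE (edgeR adjusted p = 1.99e-11). Its partner Slc7a7 rose by 0.80 ± 0.18 SE on the log2 scale, and Slc7a1, the constitutive arginine carrier, by 1.05 ± 0.40 SE. The Slc7a1 call was lost without TAM replicate 1 (adjusted p = 0.106) and without BMDM_T replicate 1, 2 or 3 (adjusted p = 0.0606 to 0.078, edgeR). In BMDM_T against BMDM_H the 4 genes gave log2 fold changes of -0.68 to 0.06 and did not pass (edgeR adjusted p = 0.595 to 0.914). The value of -0.68 is that of Slc7a2, which had 2, 1, 0 and 1 counts in BMDM_H replicates 1 to 4. Slc7a2 did not pass the low-count filter when these marrow groups were fitted alone, so its counts are too few to show a lack of change.

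On the nitric oxide side, genes that make or recycle the cofactor were called in both directions in TAM, and the other synthases were scarcely seen. Qdpr, which recycles tetrahydrobiopterin, averaged 70.2 ± 7.65 CPM in TAM and 20.2 ± 5.49 CPM in BMDM_T (log2 fold change 1.79 ± 0.24 SE, edgeR adjusted p = 2.47e-06). Spr, which makes its last synthetic step, averaged 129 ± 22.7 CPM in TAM and 43.6 ± 12.5 CPM in BMDM_T (1.57 ± 0.20 SE, edgeR adjusted p = 1.37e-06). Pcbd2, a dehydratase of the same cofactor, was lower in TAM than in BMDM_T (-0.54 ± 0.20 SE, edgeR adjusted p = 0.0287), a call lost without TAM replicate 1 or 2 and without BMDM_T replicate 1 or 4 (adjusted p = 0.0513 to 0.0668). Pts, an earlier step of the synthesis, passed only against BMDM_H (-0.78 ± 0.30 SE, edgeR adjusted p = 0.0335), a call lost without TAM replicate 1 or 2 or BMDM_H replicate 1 (adjusted p = 0.0716, 0.111 and 0.203). Gch1, the entry enzyme of tetrahydrobiopterin synthesis, was too low to test, with 1, 1 and 9 counts in TAM, 1 count in BMDM_T and 5 counts in BMDM_H. Nos3, the endothelial synthase, had 14 counts in TAM, 0 in BMDM_T and 4 in BMDM_H and was not tested. A row for Nos1, the neuronal synthase, was not used here.

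Citrulline made by Nos2 can be turned back into arginine by Ass1 and Asl. Asl, which releases arginine, was higher in TAM at 91.1, 82.7 and 63.9 CPM, against 38.8, 47.1, 47.3 and 48.7 CPM in BMDM_T (log2 fold change 0.79 ± 0.19 SE, edgeR adjusted p = 0.00142). Ass1, the step before it, had 9, 4 and 11 counts in TAM, 2 counts in BMDM_T and 3 counts in BMDM_H and was not tested. The other 3 tested genes of citrulline recycling and nitric oxide synthase control gave log2 fold changes of -0.37 to 0.41 over the 3 comparisons and did not pass (edgeR adjusted p = 0.122 to 0.996).

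Downstream of arginase, 7 of 14 tested genes of ornithine and polyamine metabolism were higher and 1 was lower in TAM than in BMDM_T. The share called, 57.1%, was near the 58.9% of all tested genes. Odc1, ornithine decarboxylase and the entry to polyamines, had 37.8, 28.6 and 31.3 CPM in TAM, against 2.15, 9.25, 8.08 and 6.31 CPM in BMDM_T and 2.39, 4.83, 16.7 and 10.4 CPM in BMDM_H. All TAM libraries lay above all marrow libraries, and the log2 fold change against BMDM_T was 2.31 ± 0.39 SE (edgeR adjusted p = 4.36e-05). Against BMDM_H it was 2.25 ± 0.42 SE, and 3.16 without BMDM_H replicates 3 and 4. Smox, spermine oxidase, averaged 316 ± 114 CPM in TAM and 121 ± 13.5 CPM in BMDM_T (1.39 ± 0.21 SE, edgeR adjusted p = 8.15e-06). Paox, the acetylpolyamine oxidase, rose by 1.54 ± 0.21 SE, Atp13a2, a lysosomal polyamine exporter, by 1.46 ± 0.25 SE, and Dohh, which completes the hypusine of Eif5a, by 0.90 ± 0.19 SE on the log2 scale. Oaz2, an antizyme that directs ornithine decarboxylase to degradation, was lower in TAM (-0.90 ± 0.17 SE, edgeR adjusted p = 1.85e-04).

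In the proline and creatine branches, 7 of 10 tested genes were higher and 1 was lower in TAM than in BMDM_T (80% called, against 58.9% of all tested genes). Gatm, which transfers the amidino group of arginine to glycine in creatine synthesis, had 751, 629 and 967 CPM in TAM, against 23.7, 60.5, 76.2 and 55.0 CPM in BMDM_T and 53.3, 76.4, 59.5 and 59.9 CPM in BMDM_H. Its log2 fold change against BMDM_T was 3.86 ± 0.25 SE (edgeR adjusted p = 7.86e-11), so this enzyme, which also takes arginine as a substrate, was higher in every TAM library than in any marrow library. Gamt, the next step to creatine, rose by 1.91 ± 0.24 SE and Ckb, brain-type creatine kinase, by 2.99 ± 0.24 SE on the log2 scale. The prolyl hydroxylase subunits P4ha2 and P4hb, which modify proline in collagen, rose by 4.62 ± 0.58 SE and 1.88 ± 0.17 SE on the log2 scale. The P4ha2 value was 5.70 without BMDM_T replicate 2 and rests on 3 counts in BMDM_T. Aldh4a1, of proline breakdown, was lower (-0.76 ± 0.23 SE, edgeR adjusted p = 0.00723).

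The 6 arginine genes called between BMDM_T and BMDM_H came from several branches. Beside Nos2 and Arg2, Smox had 136, 126, 118 and 104 CPM in BMDM_T, against 72.4, 61.1, 40.9 and 59.9 CPM in BMDM_H (log2 fold change 1.01 ± 0.22 SE, edgeR adjusted p = 0.00881). Srm, spermidine synthase, was higher by 1.05 ± 0.26 SE (edgeR adjusted p = 0.0204), and Oat, which converts ornithine toward proline, by 0.71 ± 0.18 SE (edgeR adjusted p = 0.0202). All BMDM_T libraries lay above all BMDM_H libraries for these 3 genes. Ckb was lower, with a mean of 35.7 ± 10.6 CPM in BMDM_T and 106 ± 35.6 CPM in BMDM_H (SD, n = 4 each; -1.50 ± 0.24 SE, edgeR adjusted p = 7.32e-04). Odc1, which lies between arginase and the polyamine enzymes Srm and Smox, gave -0.06 ± 0.53 SE and did not pass (edgeR adjusted p = 0.98). Like Nos2, Odc1 did not pass the low-count filter when BMDM_T and BMDM_H were fitted alone. Without BMDM_H replicates 3 and 4, only Nos2 (adjusted p = 0.00891) and Ckb (adjusted p = 0.0111) passed, with Smox at 0.102, Srm at 0.118 and Oat at 0.0647. The Srm call was also lost without BMDM_T replicate 4 (0.0797), BMDM_H replicate 1 (0.0932) or BMDM_H replicate 3 (0.0581). The Oat call was lost without BMDM_T replicate 2 (0.0597), BMDM_H replicate 1 (0.0645) or BMDM_H replicate 2 (0.0727).

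**Figure D3:**
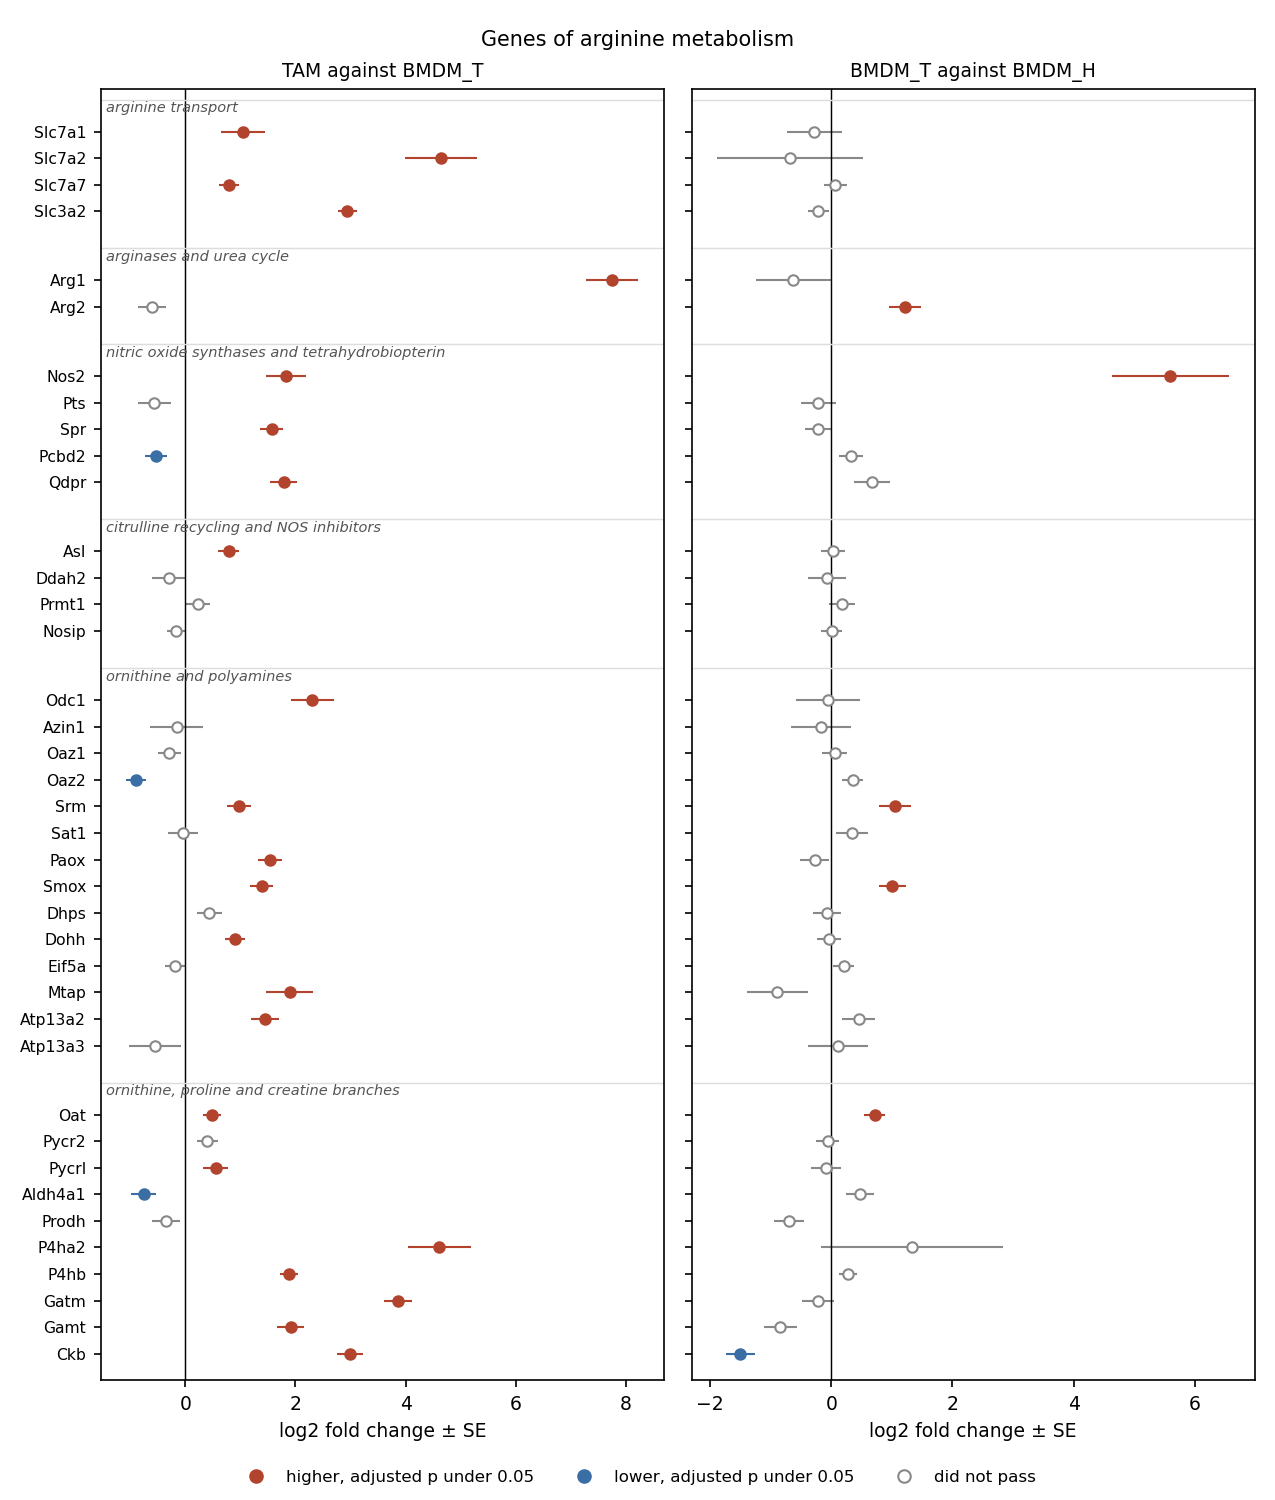
Log2 fold change with its SE for the 39 tested genes of arginine metabolism, grouped by role, in TAM against BMDM_T (left) and BMDM_T against BMDM_H (right); filled points passed at an adjusted p under 0.05. Arg1 had the largest difference on the left (7.76) and Nos2 the largest on the right (5.60).

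Genes known to control Arg1 were called in both directions. Of 20 tested regulators among 30 listed, 9 were higher and 7 lower in TAM than in BMDM_T, where 30.1% of all tested genes were called higher and 28.7% lower. Klf4, a transcription factor of alternative activation, averaged 336 ± 26.8 CPM in TAM and 39.4 ± 7.33 CPM in BMDM_T (log2 fold change 3.08 ± 0.19 SE, edgeR adjusted p = 3.30e-11). Il2rg, the common gamma chain of the type I interleukin 4 receptor, averaged 197 ± 59.8 CPM in TAM and 25.9 ± 3.00 CPM in BMDM_T (2.93 ± 0.23 SE, edgeR adjusted p = 8.49e-10). Cebpa, a C/EBP factor of myeloid cells, rose by 2.21 ± 0.17 SE, and Il10ra, the interleukin 10 receptor, by 1.73 ± 0.18 SE on the log2 scale. Spi1, the myeloid factor PU.1, was lower (-1.31 ± 0.24 SE, edgeR adjusted p = 8.00e-05), as was Il6ra, the interleukin 6 receptor (-0.95 ± 0.17 SE, edgeR adjusted p = 6.41e-05). Il4ra, the receptor chain that binds interleukin 4, had 9, 5 and 5 counts in TAM, 1 count in BMDM_T and 0 in BMDM_H and was not tested.

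In BMDM_T against BMDM_H, where Arg1 did not pass, 4 of the 20 Arg1 regulators were higher and 2 lower (30% called, against 4.82% of all tested genes). Csf2rb, the beta chain of the GM-CSF receptor, was higher by 0.91 ± 0.20 SE (edgeR adjusted p = 0.00855) and Klf4 was lower (-1.25 ± 0.20 SE, edgeR adjusted p = 5.72e-04). Il13ra1, a chain of the interleukin 13 receptor, passed at 1.17 ± 0.31 SE, but not without BMDM_T replicate 1 or 2 or BMDM_H replicate 2, 3 or 4 (edgeR adjusted p = 0.0583 to 0.096). The kinase gene Jak3 passed at 0.98 ± 0.28 SE, but not without TAM replicate 2, BMDM_T replicate 1, 3 or 4 or BMDM_H replicate 1, 2 or 3 (edgeR adjusted p = 0.0548 to 0.164). Stat3, a transcription factor below interleukin 6 and 10, passed at 0.71 ± 0.18 SE, but not without BMDM_T replicate 1 or 4 or BMDM_H replicate 2 (edgeR adjusted p = 0.0575 to 0.08). Il10ra was lower by the fit (-0.71 ± 0.18 SE), but did not pass without BMDM_T replicate 2 or BMDM_H replicate 1 or 4 (edgeR adjusted p = 0.0514 to 0.105). Without BMDM_H replicates 3 and 4, Klf4 (adjusted p = 0.00599) was the only regulator of these 6 that passed, and Csf2rb was at 0.126.

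Of 25 tested regulators of Nos2 among 28 listed, 10 were higher and 3 lower in TAM than in BMDM_T. The share called, 52%, was below the 58.9% of all tested genes. Cd14, the co-receptor for bacterial lipopolysaccharide, had 2797, 2373 and 2193 CPM in TAM, against 156, 115, 130 and 85.7 CPM in BMDM_T (log2 fold change 4.34 ± 0.21 SE, edgeR adjusted p = 7.95e-13). Tlr2, a Toll-like receptor for bacterial lipoproteins, rose by 2.39 ± 0.18 SE, Irf8, an interferon regulatory factor, by 1.29 ± 0.16 SE, and the NF-kB subunit Relb by 1.19 ± 0.21 SE on the log2 scale. Il1b, the inflammatory cytokine interleukin 1 beta, rose by 1.64 ± 0.30 SE. Myd88, the adaptor below Toll-like receptors, was lower in TAM (-1.29 ± 0.18 SE, edgeR adjusted p = 3.81e-06). Ifngr1, the ligand-binding chain of the interferon gamma receptor, did not pass at -0.20 ± 0.17 SE (edgeR adjusted p = 0.331).

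Between BMDM_T and BMDM_H, 3 of the 25 Nos2 regulators were higher and 0 lower (12% called, against 4.82% of all tested genes). Socs3, a feedback inhibitor of cytokine receptors, had 508, 450, 472 and 339 CPM in BMDM_T, against 93.9, 98.1, 83.7 and 70.3 CPM in BMDM_H (log2 fold change 2.33 ± 0.20 SE, edgeR adjusted p = 2.73e-07). Myd88 had 457, 352, 413 and 315 CPM in BMDM_T, against 234, 150, 197 and 169 CPM in BMDM_H (1.03 ± 0.17 SE, edgeR adjusted p = 7.85e-04). All BMDM_T libraries lay above all BMDM_H libraries for Socs3 and Myd88, while Il1b overlapped, with 638 to 1771 CPM in BMDM_T against 346 to 816 CPM in BMDM_H. Il1b passed at 1.33 ± 0.29 SE (edgeR adjusted p = 0.00793), a call lost without BMDM_H replicates 3 and 4 (adjusted p = 0.153). Ifngr1 gave 0.19 ± 0.17 SE and did not pass (edgeR adjusted p = 0.616).

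Arg1 and Nos2 are textbook markers of opposite activation states, and the other markers of both states were mostly higher in TAM than in BMDM_T. Of 8 tested alternative activation genes 7 were higher and 1 lower, in a comparison with 30.1% of all tested genes called higher and 28.7% lower. Tgm2, a transglutaminase, averaged 1174 ± 148 CPM in TAM and 15.6 ± 6.19 CPM in BMDM_T (log2 fold change 6.23 ± 0.25 SE, edgeR adjusted p = 6.23e-14). Mrc1, the mannose receptor, rose by 5.27 ± 0.29 SE, Stab1, a scavenger receptor, by 5.40 ± 0.33 SE, and Mgl2, a galactose-type lectin, by 3.69 ± 0.20 SE on the log2 scale. Chil3, a chitinase-like protein used beside Arg1 as such a marker, went the other way, with 9.45, 5.30 and 2.33 CPM in TAM, against 606, 920, 466 and 606 CPM in BMDM_T (-7.00 ± 0.50 SE, edgeR adjusted p = 2.92e-10). Retnla, another marker of this state, was too low to test, with 21, 6 and 12 counts in TAM and 0 in all 8 marrow libraries.

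Of 14 tested classical activation genes, 11 were higher and 1 lower in TAM than in BMDM_T (85.7% called, against 58.9% of all tested genes). Another 3 genes of this list had a symbol but did not pass the low-count filter. Cxcl9 and Cxcl11 had at most 1 count in any marrow library, so they were kept through TAM and had to differ. The share called is therefore a description. The chemokine gene Ccl5 had 101, 74.8 and 212 CPM in TAM, against 4.31, 6.72, 2.31 and 4.51 CPM in BMDM_T (log2 fold change 4.82 ± 0.40 SE, edgeR adjusted p = 2.12e-09, and 4.23 without TAM replicate 3). The interferon-induced chemokine gene Cxcl10 rose by 3.63 ± 0.27 SE and the guanylate-binding protein gene Gbp5 by 3.42 ± 0.36 SE on the log2 scale. Cxcl9, a related chemokine gene, rose by 4.99 ± 0.70 SE, and by 4.14 without TAM replicate 3, which had 40.6 CPM against 8.89 and 17.0 CPM in the other TAM libraries. Its counts in BMDM_T replicates 1 to 4 were 1, 1, 0 and 1, so the size of this rise rests on few counts. The co-stimulatory receptor gene Cd40 rose by 2.75 ± 0.21 SE. Chil3 and Arg1 are thus grouped by the textbook but differed between TAM and BMDM_T in opposite directions. Chil3 was also high in BMDM_H, at 463 to 1725 CPM, and the part of cell composition in this contrast was not tested.

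In BMDM_T against BMDM_H, where only Nos2 of the pair passed, 3 of 14 classical activation genes were higher and 0 lower (21.4% called, against 4.82% of all tested genes). Saa3, an acute-phase gene, averaged 185 ± 68.2 CPM in BMDM_T and 4.72 ± 5.54 CPM in BMDM_H (SD, n = 4 each; log2 fold change 5.80 ± 0.43 SE, edgeR adjusted p = 5.21e-08, and 6.54 without BMDM_H replicate 4). Irg1, which makes itaconate, had 30.1, 24.4, 18.5 and 21.6 CPM in BMDM_T, against 7.96, 2.41, 0 and 2.60 CPM in BMDM_H (2.57 ± 0.45 SE, edgeR adjusted p = 0.00151, and 3.70 without BMDM_H replicate 1). Of the 8 alternative activation genes, Mgl2 was higher (1.85 ± 0.35 SE, edgeR adjusted p = 0.0029) and Cd163, a hemoglobin scavenger receptor of macrophages, was lower (-3.18 ± 0.62 SE, edgeR adjusted p = 0.00346, and 0.0622 with limma-voom).

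**Figure D4:**
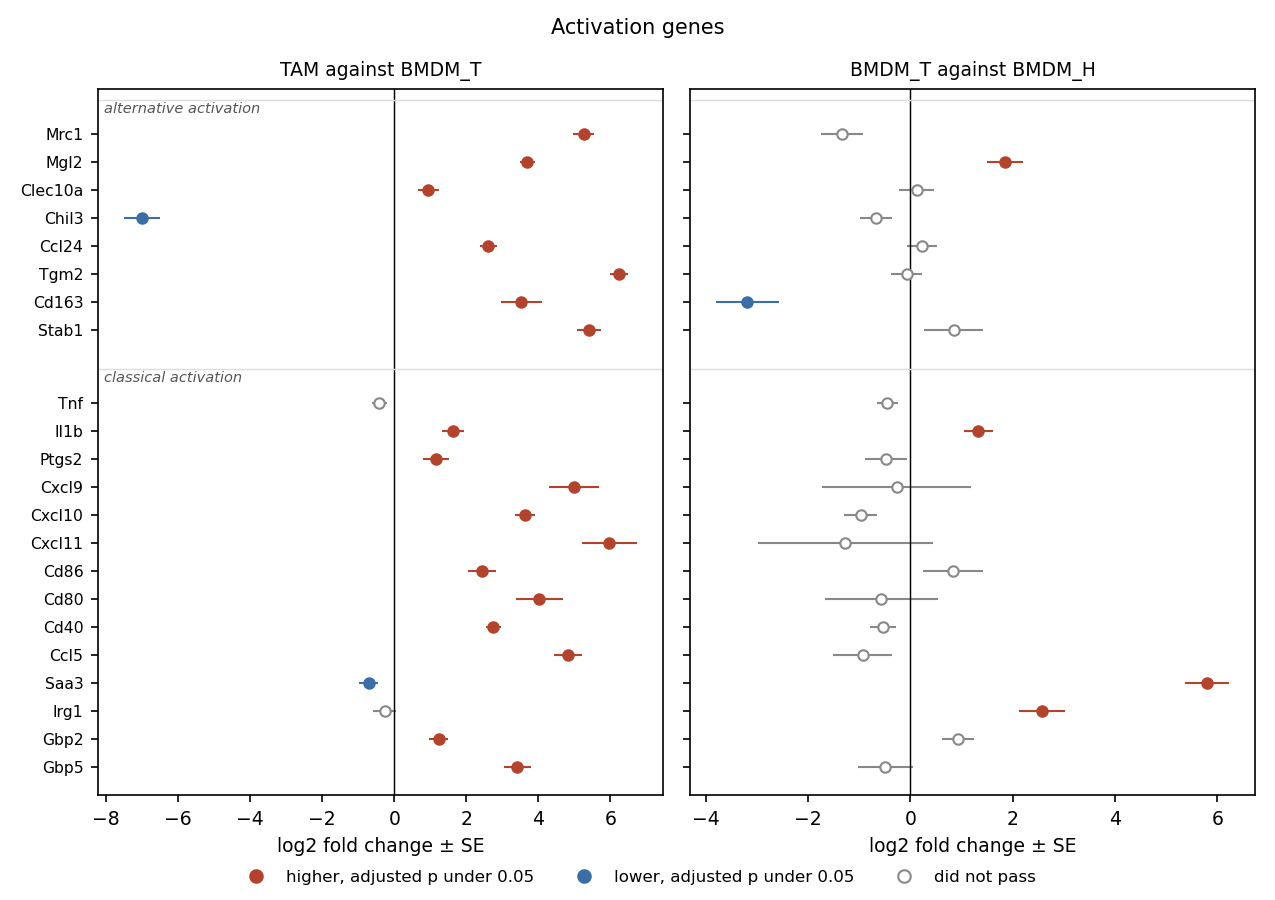
Log2 fold change with its SE for 8 alternative and 14 classical activation genes in TAM against BMDM_T (left) and BMDM_T against BMDM_H (right); filled points passed at an adjusted p under 0.05. On the left most genes of both lists lie above 0 with Chil3 at -7.00, and on the right 5 genes passed, Saa3 with the largest difference (5.80).

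Genes that handle nitric oxide and its products changed in both directions. Of 6 tested, 2 were higher and 3 lower in TAM than in BMDM_T, where 58.9% of all tested genes were called. Adh5, which clears S-nitrosoglutathione, and Hmox1, heme oxygenase 1, were higher in TAM than in BMDM_T (log2 fold change 1.08 ± 0.22 SE and 1.07 ± 0.23 SE). Gsr, glutathione reductase, averaged 10.3 ± 2.65 CPM in TAM and 86.6 ± 18.9 CPM in BMDM_T (-3.10 ± 0.25 SE, edgeR adjusted p = 1.52e-09). Txn1, thioredoxin (-1.34 ± 0.19 SE), and Cybb, the catalytic subunit of the phagocyte oxidase (-1.06 ± 0.21 SE), were also lower. In BMDM_T against BMDM_H, Txn1 alone was higher (0.65 ± 0.17 SE, edgeR adjusted p = 0.0296), a call lost without BMDM_T replicate 1, 2 or 3 or BMDM_H replicate 1, 2 or 3 (adjusted p = 0.0501 to 0.105).

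Genes most like Arg1 across the 11 libraries, by Pearson's r of log2(CPM + 1) over 6999 genes with at least 10 CPM in the highest group, were Acp5 (r = 0.991), Hilpda (0.991), Alg9 (0.989), Mt2 (0.987) and Slamf9 (0.986). Acp5, the tartrate-resistant acid phosphatase, averaged 663 CPM in TAM, 25.8 CPM in BMDM_T and 32.3 CPM in BMDM_H. Hilpda, a lipid droplet protein gene of the hypoxia response, averaged 385 CPM in TAM, 4.94 CPM in BMDM_T and 12.0 CPM in BMDM_H. Those most like Nos2 were Scarb2 (r = 0.967), Klc4 (0.962), Bnip3 (0.954), Unc45a (0.952), Socs3 (0.946) and Rnf149 (0.940). Bnip3, a mitophagy receptor gene, averaged 85.1 CPM in TAM, 24.3 CPM in BMDM_T and 6.76 CPM in BMDM_H. The Arg1 neighbors thus shared its step between TAM and marrow, and the Nos2 neighbors its descent over the 3 groups. Over the 11 libraries the first principal component held 71.8% of the variance. Of all tested genes, 58.9% were called between TAM and BMDM_T and 56.3% between TAM and BMDM_H. The value of r thus largely follows the gap between TAM and marrow and is given as a description.

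Epithelial and endothelial markers were low in TAM but summed higher there than in marrow, while fibroblast markers overlapped between the groups. The 7 mammary epithelial markers with a symbol summed to 75.0 to 116 CPM in TAM, against 20.5 to 41.6 CPM in BMDM_T and 32.6 to 65.1 CPM in BMDM_H. The epithelial sum lay above both marrow groups in every TAM library. Krt18, a keratin, made up much of it, with 51.9 ± 14.8 CPM in TAM and 11.2 ± 8.57 CPM in BMDM_T (SD, n = 3 and 4, log2 fold change 2.23 ± 0.41 SE, edgeR adjusted p = 1.12e-04), and Epcam averaged 1.94 CPM in TAM and 2.31 CPM in BMDM_T. The 3 endothelial markers summed to 61.0 to 92.8 CPM in TAM, against 19.6 to 36.1 CPM in BMDM_T and 7.81 to 22.5 CPM in BMDM_H. Pecam1 made up most of the TAM sum, at 83.3, 49.9 and 53.5 CPM, while Kdr and Vwf reached at most 8.53 and 5.69 CPM there. The 4 fibroblast markers summed to 8.79 to 26.5 CPM in TAM, against 1.68 to 14.4 CPM in BMDM_T and 1.86 to 44.2 CPM in BMDM_H, and 0 of the 2 that could be tested passed in any of the 3 comparisons. The part of such cells in the Arg1 and Nos2 differences was not tested.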

How the data were processed

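The authors deposited 1 table of raw counts per gene, 24421 rows by 17 libraries. The submitters' processing notes name STAR 2.4.2a, HTSeq, bcl2fastq and the build mm10. Libraries carried a molecular identifier per the labels' protocols, but its collapse, the strand setting, the annotation and any gene filter are not stated in the sources used here. Symbols fill 10207 rows and 17 of them had turned into dates. The rows of the 6 batch 2 libraries did not match those of batch 1 (Spearman -0.0178 to 0.00233 in 66 pairs, against 0.921 to 0.958 among batch 1 BMDM_H). The 11 batch 1 libraries were therefore used. Batch 2 appears to list its rows in another order, which was not tested. Totals and CPM cover the listed genes alone.

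From the counts, edgeR 4.0.16 in R 4.3.3 (filterByExpr, TMM, estimateDisp, glmQLFit, glmQLFTest) was fitted once over the 11 libraries and 7518 genes. Genes with a Benjamini-Hochberg adjusted p under 0.05 were called. SE is the log2 fold change over the square root of F. Ratios of summed counts use effective library sizes, with exact 95% intervals. A step tested on simulated data preceded the fit. Alternatives used limma 3.58.1, DESeq2 1.42.0, other scalings, filters and libraries. Replicates differed by more than sampling noise (chi-square per degree of freedom 2.67 to 14.6). Gene positions come from GENCODE, GRCm38.

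Named genes are Arg1, Nos2, up to 6 called members per list and comparison by smallest p, fixed pathway genes and the 6 genes most like each member, of which 1 is not reported here. Retnla, Epcam, Krt18, Mpo and Cxcr2 were named after their values were seen. The members and lists were chosen with earlier results of these data known. Same-numbered BMDM_T and BMDM_H libraries deviated together (r = 0.214, 0.239, 0.129 and 0.121, limit 0.1), so the numbers were treated as pairs in an alternative fit, though the labels do not say what they share. For TAM and BMDM_T r was 0.0138, -0.0341 and 0.0783, and for TAM and BMDM_H it was -0.0554, -0.0550 and 0.0692, all under the limit.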

Additional observations from a re-analysis of the deposited data

Results flagged for a closer look

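In groups of 4 libraries, a library was picked out where its gap to the nearest other exceeded Dixon's 95% critical value, as a share of the group's range. Of 132 groups checked for 66 genes and ratios 11 were picked out, and chance gives about 1 in 20. For the members there was 1 such case, Nos2 in BMDM_H replicate 3 at 1.86 CPM from 1 count, with 0 counts in the other 3 libraries. P4ha2 in BMDM_H replicate 1 (0.796 CPM) and Cxcl11 in BMDM_T replicate 2 (0.840 CPM) also rest on 1 count each, with 0 in the rest of their groups.

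BMDM_T replicate 1, the marrow library with the most Nos2 and the fewest Arg1 counts, stood apart for 3 genes. Asl was at 38.8 CPM there, against 47.1 to 48.7 CPM in the other BMDM_T libraries. Csf2rb was at 306 CPM, against 200 to 209 CPM, and Spi1 was at 952 CPM, against 597 to 646 CPM. In BMDM_T replicate 4, Ifngr1 was at 120.0 CPM, against 152 to 156 CPM.

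BMDM_H replicate 4, the library with the fewest counts, stood apart for 3 genes. Ckb was at 159 CPM, against 82.8 to 94.8 CPM in the other BMDM_H libraries. Saa3 was at 13.0 CPM from 5 counts, against 1.61 to 2.39 CPM, and Pcbd2 was at 46.8 CPM, against 108 to 120 CPM. In BMDM_H replicate 2, Txn1 was at 984 CPM, against 1359 to 1387 CPM.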

How the results depend on the processing

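Arg1 and Nos2 kept their direction and their calls in TAM against BMDM_T and against BMDM_H in all 19 alternatives, and Nos2 in BMDM_T against BMDM_H in 18. Nos2 did not pass the low-count filter when those groups were fitted alone, so its calls in the TAM comparisons are given as a description. Adjusted p-values ran from 4.69e-18 to 1.46e-08 for Arg1 in TAM against BMDM_T and from 1.79e-04 to 0.0127 for Nos2 in BMDM_T against BMDM_H. Depth limits Arg1 and Nos2 in marrow.

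Without BMDM_H replicates 3 and 4, BMDM_T against BMDM_H gave 0.25 for Arg1 (adjusted p = 0.913, against 0.231 to 0.916 over all alternatives), 179 calls and 2 arginine genes, against -0.63, 362 and 6. Leaving out single libraries gave 238 to 409 calls, the fewest without BMDM_H replicate 2. With Arg1 taken as a share of Arg1 plus Nos2 counts, TAM minus BMDM_H was -0.00979. This value is a fraction, and its sign is the reverse of the log2 ratio difference of 1.43. With total counts as the only scaling, the calls were 155 higher and 218 lower, against 212 and 150, and the median of all genes moved to -0.13, and to 0.18 in TAM against BMDM_T.

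Genes that did not pass changed sign. Ifngr1 in TAM against BMDM_H (-0.01) gave 0.00642 with DESeq2 size factors, 0.0284 with total counts, 0.00343 with DESeq2, and -0.12 to 0.14 without single libraries. In BMDM_T against BMDM_H, Asl (0.03) gave -0.0743 with total counts, -0.0258 without BMDM_H replicates 3 and 4, and -0.0379 to 0.17 without single libraries, and Odc1 (-0.06) gave 0.14 with limma-voom, 0.87 without BMDM_H replicates 3 and 4, and -0.49 to 0.50 without single libraries. The causes were not tested.

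With the replicate number as a block, BMDM_T against BMDM_H had 468 calls, 285 higher and 183 lower, and Nos2 had an adjusted p = 4.85e-04. The block changed no call of Arg1 or Nos2.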
